A study of Homo sapiens with 4 samples.

Results

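A group of 8 neighbouring genes on the long arm of chromosome 13, from MPHOSPH8 to XPO4, had reads in 3 liver cancer lines and none in SK-Hep-1, while LATS2, the next protein-coding gene, was read in all 4 lines. These 9 genes, of 29670 in the gene table, were MPHOSPH8, PSPC1, ZMYM5, ZMYM2, CRYL1, IFT88, EEF1AKMT1, XPO4 and LATS2, taken by gene name. The 24 circular RNAs (circRNAs, formed when a splice site joins back to one upstream) that the circRNA table assigns to their Ensembl identifiers were taken with them, of 12473 in that table. The members were chosen by their read numbers, 8 of them for having 0 in SK-Hep-1 and reads in the other lines and LATS2 as the gene beside them, so their difference between SK-Hep-1 and the other lines is a description and carries no test.

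The study sequenced total RNA, depleted of ribosomal RNA and without poly(A) selection, from HepG2, Hep3B, Huh-7D12 and SK-Hep-1, established human lines that the labels call liver cancer lines. The labels give no genotype, treatment or culture condition, and there was 1 library per line with no replicate, so no p-value or standard deviation could be given. Gene reads ranged from 18581156 to 24409250 per library and reads across back-splice junctions from 6235 to 13515. Levels are the authors' normalised values scaled to a mean library total of 1000000, on which 1 read in SK-Hep-1 was worth 0.0528, and intervals beside them are exact 95% intervals that cover counting error only. The hepatocyte markers ALB, APOA1, HNF4A, FGB and TTR also had 0 reads in SK-Hep-1, where the summed level of 8 such markers was 39.8 against 10981 to 23920.0 in the other lines, and all 8 stood at least 4-fold lower. Of 5 mesenchymal markers, VIM and THY1 stood at least 4-fold higher there, and of their sum, 6102 against 11.6 to 825, VIM made up 6046. PDGFRB was lowest in SK-Hep-1, at 1.64 against 4.92 to 12.1, COL1A2 had 0 reads there and COL1A1 was at 2.27 against 0.0349 to 2.51. The 4 cholangiocyte markers summed to 430 against 265 to 363, with KRT7 higher and EPCAM lower, and the 4 leukocyte markers to 1.11 against 0.656 to 1.92. The 5 endothelial markers summed to 0.106 against 0.419 to 1.61, with PECAM1, CDH5 and KDR at 0 reads in SK-Hep-1 and VWF and TEK at 1 each. SK-Hep-1 thus differed from the other lines in many genes outside chromosome 13, and the part of these differences in the values below was not tested.

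The 9 genes share no pathway. MPHOSPH8 encodes a chromodomain protein of the HUSH complex, which keeps retroelements and other sequences silent through methylated histone H3. PSPC1 encodes a core protein of paraspeckles, nuclear bodies built on the long RNA NEAT1. ZMYM2 and ZMYM5 encode related MYM-type zinc finger proteins, and ZMYM2 binds the LSD1-CoREST-HDAC corepressor. CRYL1 encodes an enzyme of the uronate pathway that oxidises L-gulonate, IFT88 a subunit of intraflagellar transport complex B needed to build cilia, and EEF1AKMT1 a lysine methyltransferase of translation elongation factor eEF1A. XPO4 encodes an exportin that carries EIF5A and SMAD3 out of the nucleus, and LATS2 a kinase of the Hippo pathway that phosphorylates YAP1.

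The promoters of 4 of the genes are shown because they bear on what neighbouring genes share: MPHOSPH8 begins the stretch without reads, ZMYM5 and ZMYM2 are the pair whose promoters are alike, and LATS2 lies beyond its end. The sequences are from RefSeq on GRCh38.p14, 5′ to 3′ on the strand of the gene, cut where the gene begins in RefSeq or in GENCODE 29, whichever comes first. Capitals mark CpG dinucleotides.
MPHOSPH8 promoter, chr13:19633409-19633658, plus strand: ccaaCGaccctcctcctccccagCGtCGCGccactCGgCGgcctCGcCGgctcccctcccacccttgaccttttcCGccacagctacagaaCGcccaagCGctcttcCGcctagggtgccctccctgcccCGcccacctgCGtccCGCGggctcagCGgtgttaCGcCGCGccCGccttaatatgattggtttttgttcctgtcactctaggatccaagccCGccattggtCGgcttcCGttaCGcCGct
ZMYM5 promoter, chr13:19863650-19863899, minus strand: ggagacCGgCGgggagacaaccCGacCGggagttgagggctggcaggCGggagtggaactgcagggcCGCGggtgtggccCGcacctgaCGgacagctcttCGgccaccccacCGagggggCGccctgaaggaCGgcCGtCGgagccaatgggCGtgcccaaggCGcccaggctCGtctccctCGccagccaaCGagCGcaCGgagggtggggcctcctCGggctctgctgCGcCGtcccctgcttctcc
ZMYM2 promoter, chr13:19958477-19958669, plus strand: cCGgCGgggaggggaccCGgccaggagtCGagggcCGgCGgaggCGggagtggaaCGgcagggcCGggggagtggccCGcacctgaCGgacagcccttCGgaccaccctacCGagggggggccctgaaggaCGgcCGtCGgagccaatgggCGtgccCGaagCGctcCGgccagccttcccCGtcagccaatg
LATS2 promoter, chr13:21061587-21061836, minus strand: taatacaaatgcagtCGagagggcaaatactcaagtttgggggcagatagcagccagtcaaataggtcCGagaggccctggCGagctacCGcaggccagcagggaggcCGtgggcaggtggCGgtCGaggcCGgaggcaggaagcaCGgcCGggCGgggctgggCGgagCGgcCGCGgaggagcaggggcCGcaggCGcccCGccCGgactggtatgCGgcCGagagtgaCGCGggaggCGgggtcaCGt

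Promoters were found for 8 of the 9 genes, all except EEF1AKMT1. Over windows from 250 bases before to 50 bases after the RefSeq start, they held 26 (PSPC1) to 46 (XPO4) CpG, with a median of 33 against 14 over 35116 promoters. LATS2, with 29, lay inside the range of the other 7. On either strand, the GC box GGGCGG was in 6 of the 8 (45.0% of all promoters) and CCAAT in 5 (34.6%). TATAAA (11.5% of all), CCGGAAGT (4.14%) and ATGACTCAT (0.265%) were in none of these windows. ZMYM5 and ZMYM2 are read in opposite directions, away from each other, and their promoters matched at 256 of 306 aligned positions (83.7%), whereas the other 27 pairs of members matched at 47.7% to 57.0%. CCAAT was in MPHOSPH8, ZMYM5, ZMYM2, CRYL1 and XPO4 and not in PSPC1, IFT88 or LATS2. No letter count or motif searched thus set all of the other 7 apart from LATS2. These are reference sequences and not those of the lines, and LATS2 is the only gene of comparison, so nothing is read from this.

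A chromatin gene and an RNA-binding gene came first in the stretch, both well read in 3 lines and neither in SK-Hep-1. MPHOSPH8 (ENSG00000196199, chromosome 13, 19633681 to 19673459 on GRCh38, plus strand) had levels of 21.0 (19.4 to 22.8), 32.0 (29.5 to 34.7) and 32.5 (30.3 to 34.9) in Hep3B, HepG2 and Huh-7D12, from 603, 586 and 766 reads, and 0 reads in SK-Hep-1. The SK-Hep-1 library lay below all 3 others. With a floor of 3 reads (a level of 0.158) in place of its 0 reads, it was 133-fold lower than Hep3B, the lowest of them. The exact upper limit of the level at 0 reads in SK-Hep-1 was 0.195, above this floor. This ratio and those like it below are thus ratios to the floor and not lower limits of the difference. As each library is a bulk sample of a cell line, its levels are averages over cells, and differences between cells of a line were not measured. PSPC1 (ENSG00000121390, 19674752 to 19783019, minus strand) was read 1945 times in Hep3B, 691 times in HepG2 and 1648 times in Huh-7D12, at levels of 67.9 (64.9 to 71.0), 37.8 (35.0 to 40.7) and 70.0 (66.6 to 73.4), and not in SK-Hep-1. HepG2 was the lowest of the lines with reads, and SK-Hep-1, taken at the floor, was 239-fold lower than HepG2.

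Both MYM-type zinc finger genes were without reads in SK-Hep-1. ZMYM2 (ENSG00000121741, 19958670 to 20091829, plus strand) had 2680 reads in Hep3B and 1758 in Huh-7D12, against 974 in HepG2 and 0 in SK-Hep-1. In Hep3B, HepG2 and Huh-7D12 its levels were 93.5 (90.0 to 97.1), 53.2 (49.9 to 56.7) and 74.6 (71.2 to 78.2). SK-Hep-1, taken at the floor, was 336-fold below HepG2. ZMYM5 (ENSG00000132950, 19823482 to 19863636, minus strand) was at levels of 10.6, 6.07 and 11.5 in the same 3 lines, from 305, 111 and 272 reads. It had 0 reads in SK-Hep-1, where the floor was 38.3-fold below the HepG2 level. HepG2 was thus the lowest of the 3 lines for PSPC1, ZMYM5 and ZMYM2 alike. ZMYM5 and ZMYM2 are paralogs, and how reads that match both were counted is not given in the sources used here, so the division of reads between them is uncertain.

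The enzyme and cilium genes lie further along and were also without reads in SK-Hep-1. CRYL1 (ENSG00000165475, 20403666 to 20525873, minus strand) stood at 4.61 (3.85 to 5.46), 12.6 (11.1 to 14.4) and 2.76 (2.13 to 3.52) in these 3 lines, with 132, 231 and 65 reads. It had 0 reads in SK-Hep-1, where the floor was 17.4-fold below the Huh-7D12 level. IFT88 (ENSG00000032742, 20567069 to 20691437, plus strand) was at 8.34 (7.32 to 9.47), 13.8 (12.1 to 15.6) and 7.90 (6.80 to 9.12), with 239, 252 and 186 reads. SK-Hep-1, again with 0 reads, was 49.9-fold lower than Huh-7D12 when taken at the floor. Both were highest in HepG2, the line in which PSPC1 and both zinc finger genes were lowest. EEF1AKMT1 (ENSG00000150456, 20728731 to 20773958, minus strand) had 107, 64 and 80 reads in the same 3 lines and 0 in SK-Hep-1. Its levels of 3.73 (3.06 to 4.51), 3.50 (2.69 to 4.47) and 3.40 (2.69 to 4.23) lay within each other's intervals. SK-Hep-1, taken at the floor, was 21.5-fold below the lowest of them.

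XPO4 and LATS2 lie 69983 bases apart, on either side of the end of the stretch. XPO4 (ENSG00000132953, 20777329 to 20903048, minus strand) was read 1605, 1280 and 1685 times in Hep3B, HepG2 and Huh-7D12, at levels of 56.0 (53.3 to 58.8), 70.0 (66.2 to 73.9) and 71.5 (68.2 to 75.0). It had 0 reads in SK-Hep-1, where the floor was 354-fold below the Hep3B level, the largest such ratio of the 8 genes. LATS2 (ENSG00000150457, 20973032 to 21061547, minus strand) had 283, 344 and 315 reads in those lines and 393 in SK-Hep-1, at levels of 9.88 (8.76 to 11.1), 18.8 (16.9 to 20.9), 13.4 (11.9 to 14.9) and 20.7 (18.7 to 22.9). SK-Hep-1 had the highest LATS2 level, 1.10-fold that of HepG2 with an interval of 0.952 to 1.28, so these 2 lines were not separated.

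**Figure D1:**
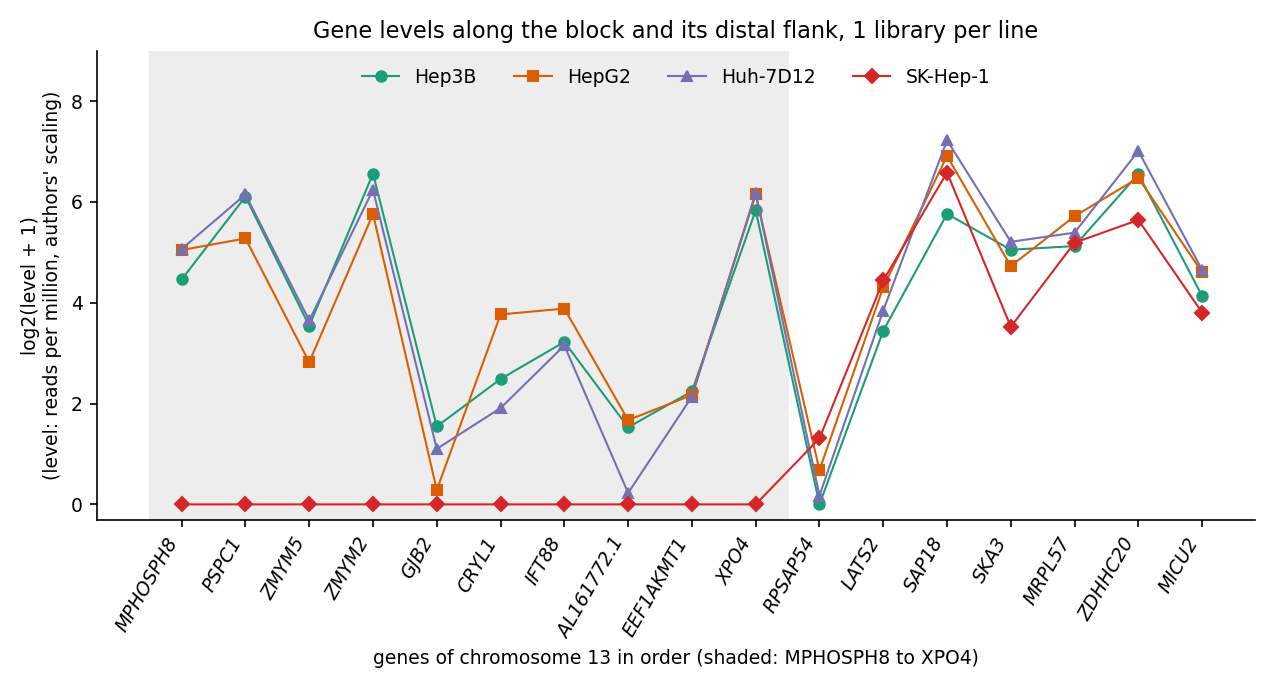
Log2(level + 1) of genes on chromosome 13 in their order along it, for those with a level of at least 1 in some line, with 1 coloured line per library and the stretch from MPHOSPH8 to XPO4 shaded. SK-Hep-1 lies at 0 for all 10 genes in the shaded stretch and, from LATS2 to MICU2, has log2 distances from -1.20 (SKA3) to 0.13 (LATS2) to the other lines.

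A gene was called lower in SK-Hep-1 when its log2(level + 1) lay at least 2, or 4-fold, under the lowest of the other lines. By this measure 7 of the 9 genes were lower, where 525 of 15850 genes with a level of at least 1 in some line (3.31%) were. As the genes were chosen for this contrast, nothing is read from the difference between these shares. The log2 distances ran from -5.83 (XPO4) through -5.76 (ZMYM2), -5.28 (PSPC1), -4.46 (MPHOSPH8), -3.15 (IFT88) and -2.82 (ZMYM5) to -2.14 for EEF1AKMT1, the last inside the threshold. CRYL1, at -1.91, was the first outside it although it too had 0 reads, and LATS2 was at 0.13. The added 1 shortens these distances for weak genes: with 0.25 in its place CRYL1 was at -3.59 and passed, and with 4 ZMYM5 (-1.33), IFT88 (-1.57) and EEF1AKMT1 (-0.89) did not, which left 4 of 9.

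Among genes with a level of at least 1 in each of Hep3B, HepG2 and Huh-7D12, 283 of 10928 (2.59%) had 0 reads in SK-Hep-1. On chromosome 13 outside the stretch there were 4 of 175 (2.29%), which were CPB2, MCF2L, F7 and PROZ. All 8 genes of the stretch that reached this level had 0 reads, as the choice of the genes requires.

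**Figure D2:**
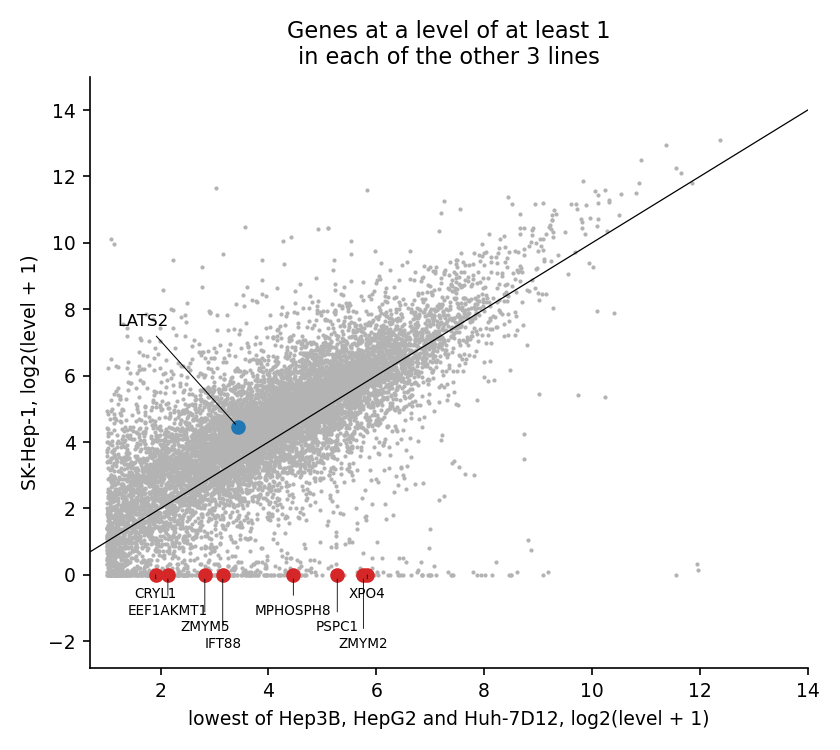
Log2(level + 1) in SK-Hep-1 against that in the lowest of Hep3B, HepG2 and Huh-7D12, for 10928 genes with a level of at least 1 in each of these 3 (grey points), with the line of equal levels drawn. The 8 genes of the stretch (red) lie at 0 in SK-Hep-1, at lowest other levels from 2.76 (CRYL1) to 56.0 (XPO4) before the logarithm, while LATS2 (blue) lies above the line.

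The rule named 8 genes of the stretch, and the gene table holds 15 further rows between them. From the start of MPHOSPH8 to the end of XPO4, 1269368 bases, GENCODE 29 annotates 31 genes, of which 23 are in the gene table. Of these 23, 22 had a read in some other line (the exception was MIR4499) and 0 had one in SK-Hep-1. Over the whole gene table, 20196 of 29670 rows had a read in SK-Hep-1, against 20872 (HepG2) to 22830 (Huh-7D12) in the other lines. Many rows are thus without reads in any given library, and the share among rows as weak as those that were no member was not computed. The 15 rows that were no member had 172, 68 and 90 reads in Hep3B, HepG2 and Huh-7D12 and 0 in SK-Hep-1. Their summed level, taken at the floor in SK-Hep-1, was 23.5-fold lower there than in HepG2. With the 6 rows that overlap a member left out, 9 rows kept 144, 57, 73 and 0 reads. These rows were not used to choose the genes, but they are few and weak, and the members held 97.8% to 98.6% of the 7788, 4257 and 6550 reads of the whole stretch in the other 3 lines.

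Among the rows that were no member, GJB2 and AL161772.1 alone reached a level of 1 in some line. GJB2, which encodes a connexin of gap junctions, had 55, 4 and 27 reads in Hep3B, HepG2 and Huh-7D12. AL161772.1, a non-coding gene, had 54, 40 and 4 reads in the same order. Neither could be called lower by 4-fold on the log2(level + 1) scale. Even their highest levels, 1.92 for GJB2 in Hep3B and 2.19 for AL161772.1 in HepG2, were too low for it. Each was also near 0 in a line besides SK-Hep-1. GJA3, another connexin gene, had 4, 1 and 13 reads, IL17D, a cytokine gene, 12, 6 and 15, and PSPC1-AS2, antisense to PSPC1, 10, 2 and 4. The kit marks strand, but whether counting used it is not given in the sources used here, so reads of PSPC1-AS2 and PSPC1 may not be separate.

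The edges of the stretch differed in what can be seen of them. On the side of the centromere the 13 rows before MPHOSPH8 had 3, 3 and 14 reads in Hep3B, HepG2 and Huh-7D12, with 2 in SK-Hep-1, and none reached a level of 1, so where the stretch begins cannot be told from these libraries. On the other side the first row after XPO4 is RPSAP54, a processed pseudogene with 0, 11, 3 and 28 reads in that order of the lines, which may hold reads of RPSA or its other copies. LATS2 follows, and then SAP18, a subunit of a histone deacetylase complex, at 53.3, 119, 149 and 94.9 in the same order. SAP18 in SK-Hep-1 lay between Hep3B and the other lines. SKA3, which acts at kinetochores, was at 32.2, 25.5, 36.0 and 10.5, and MRPL57, a gene of the mitochondrial ribosome, at 33.9, 51.6, 41.0 and 35.6. SKA3 was lowest in SK-Hep-1 with a log2 distance of -1.20, short of 4-fold, and MRPL57 was not lowest there. ZDHHC20 and MICU2, the next genes with a level of at least 1 in some line, were also lowest in SK-Hep-1, at -0.83 and -0.33. Over 273 genes of chromosome 13 beyond XPO4 with a level of at least 1 in some line, 9 were called lower and the median log2 difference from the mean of the other lines was -0.05, against -0.03 over all genes and -4.14 over the 8 genes without reads.

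Stretches of this kind were then sought over the whole table, as runs of 3 or more neighbouring genes with at most 3 reads in 1 line and a level of at least 1 in each other line. Rows below that level in another line were passed over, so a run can span rows with reads. The SK-Hep-1 run from SERPINA11 to SERPINA5, for example, spans 1 row with 379 reads there. SK-Hep-1 held 16 such runs, Huh-7D12 had 4, HepG2 had 1 and Hep3B had 0. Single genes met the same limit in 412 of 10928 cases (3.77%) in SK-Hep-1, 72 of 10391 (0.693%) in Huh-7D12, 210 of 10588 (1.98%) in HepG2 and 45 of 10373 (0.434%) in Hep3B. The run from MPHOSPH8 to XPO4, of 8 genes, was the second longest of all 21, after 21 zinc finger and other genes from ZNF528 to ZNF813 on chromosome 19 (52397849 to 53496255), also in SK-Hep-1. The longest run in Huh-7D12 had 7 genes, from SPIN3 to ZC4H2 on chromosome X.

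Counting every row between the ends, weak genes included, 5 of the 16 runs in SK-Hep-1 had no read in any row. The run on chromosome 13 had 23 rows without a read. The others were MTAP, CDKN2A and CDKN2B with 6 rows (chromosome 9, 21802543 to 22009363), ACTR3C to RARRES2 with 4, and with 3 rows each the fibrinogen genes FGB, FGA and FGG and the genes FYB2, C8A and C8B. FGB, FGA, FGG, C8A and C8B encode plasma proteins of the liver, and MTAP, CDKN2A and CDKN2B encode a phosphorylase of methionine salvage and inhibitors of cyclin-dependent kinases. The chromosome 19 run had 34 rows, of which NDUFV2P1, a processed pseudogene, had 4 reads in SK-Hep-1.

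**Figure D3:**
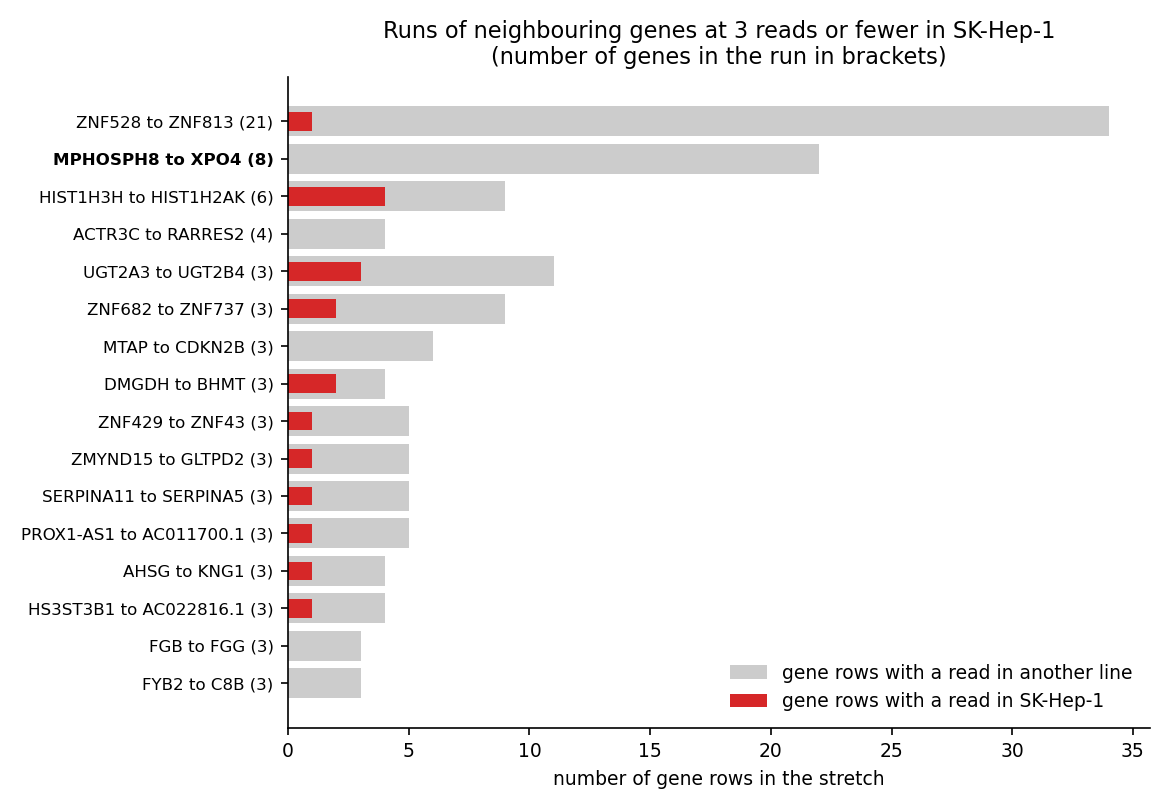
Number of gene rows with a read in another line (grey) and with a read in SK-Hep-1 (red) in each of the 16 SK-Hep-1 runs, named by first and last gene with the number of genes in brackets. MPHOSPH8 to XPO4 had 22 rows with a read in another line and none with a read in SK-Hep-1, and 4 shorter runs were also without red.

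Without SK-Hep-1, the other 3 lines can be set beside each other, though 8 of the 9 genes were chosen for having reads in them. Per kb of exon, PSPC1 stood first of the 9 genes in all 3 lines, at 14.1, 7.84 and 14.5 in Hep3B, HepG2 and Huh-7D12. The next were ZMYM2 (6.87) and XPO4 (5.33) in Hep3B, and XPO4 in HepG2 (6.66) and Huh-7D12 (6.81). MPHOSPH8, at 4.29, 6.53 and 6.63, came after these in each line, and in Hep3B XPO4 was 1.24-fold above it (1.13 to 1.37). XPO4 and MPHOSPH8 were not separated in HepG2 or Huh-7D12. ZMYM5 was at 2.87, 1.63 and 3.11 and EEF1AKMT1 at 2.79, 2.61 and 2.54, a pair not separated in Hep3B or Huh-7D12. The lowest place was held by CRYL1 in Hep3B (1.06) and Huh-7D12 (0.638) and by ZMYM5 in HepG2. IFT88 stood eighth of 9 in all 3, at 1.36, 2.25 and 1.29. LATS2, at 1.77, 3.37 and 2.40, ranked 7, 5 and 7 of 9. In HepG2 neither LATS2 and CRYL1, CRYL1 and EEF1AKMT1, nor EEF1AKMT1 and IFT88 were separated, and in Huh-7D12 EEF1AKMT1 and LATS2 were not. In SK-Hep-1, LATS2 was at 3.72 per kb.

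**Figure D4:**
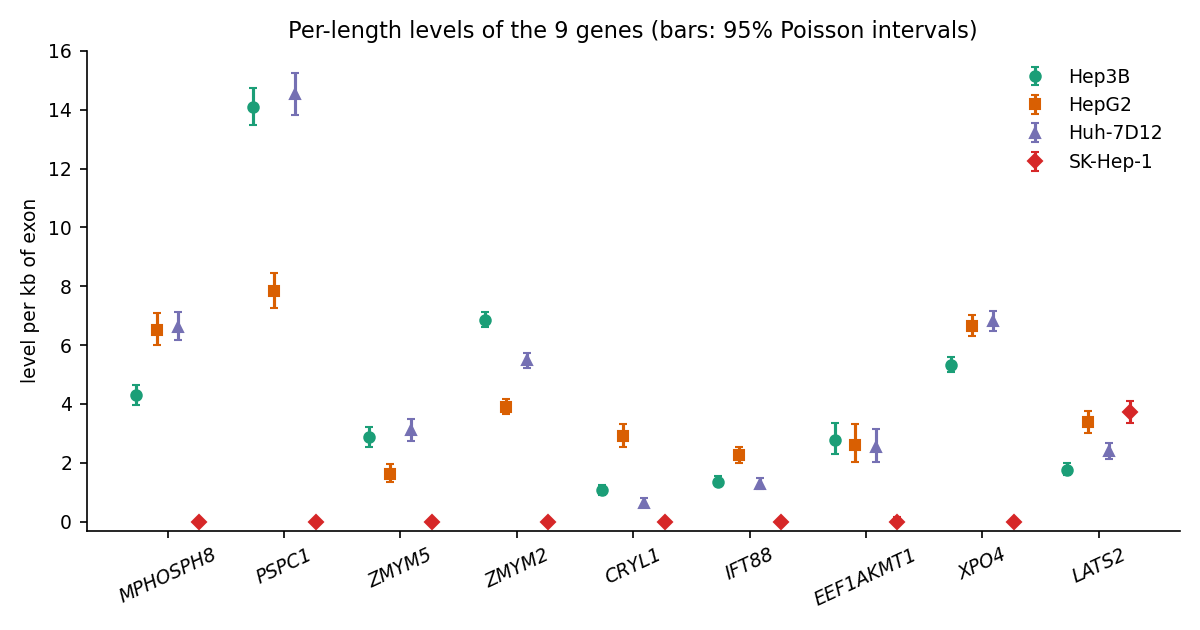
Level per kb of exon of the 9 genes in the 4 lines, with exact 95% Poisson intervals for counting error as bars. PSPC1 lies highest at 14.1 and 14.5 in Hep3B and Huh-7D12 but at 7.84 in HepG2, and LATS2 is the one gene with SK-Hep-1 above 0.

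Among Hep3B, HepG2 and Huh-7D12, CRYL1 was the most variable of the 9 genes, 4.58-fold higher in HepG2 than in Huh-7D12 (3.46 to 6.12), with Hep3B between and all 3 lines separated. It was the only one with a range of 2-fold or more on the log2(level + 1) scale, which 50.9% of 14835 genes had. The median range of the 9 genes was 0.80 on that scale, against 1.01 over all genes. EEF1AKMT1 had the smallest ratio, 1.10 between Hep3B and Huh-7D12 (0.815 to 1.49), and XPO4 followed at 1.28 (1.19 to 1.37), with HepG2 and Huh-7D12 not separated. PSPC1, ZMYM5 and ZMYM2 were lowest in HepG2, with ratios of the highest to the lowest line of 1.85 (1.69 to 2.03), 1.90 (1.52 to 2.40) and 1.76 (1.63 to 1.89). MPHOSPH8 was lowest in Hep3B at a ratio of 1.55 (1.39 to 1.72), as was LATS2 at 1.90 (1.62 to 2.24), and IFT88 was highest in HepG2 at 1.74 (1.44 to 2.12). With levels scaled by the library total in place of the authors' scaling, PSPC1 (1.53), ZMYM5 (1.42), ZMYM2 (1.35) and CRYL1 (1.30) all had a log2 range over 1, where 59.4% of all genes did. HepG2 then also became lowest for EEF1AKMT1 and XPO4, Hep3B lowest for IFT88 and Huh-7D12 highest for LATS2. With reads outside mitochondrial genes the only such change was that Hep3B became highest for PSPC1.

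Back-splice reads give a second readout of the same genes, from the circRNA table. Junctions are shown for the circRNAs with at least 5 reads in a line, for the pair from the paralogs ZMYM5 and ZMYM2, and for 1 that was read in SK-Hep-1. Each is written 5′ to 3′ as the 20 bases that end the last exon in lower case and the 20 that open the first exon in capitals, built from GENCODE 29 transcripts and matched to the deposited coordinates.
ZMYM2 exons 14 to 22, chr13:20051433-20067390, plus strand: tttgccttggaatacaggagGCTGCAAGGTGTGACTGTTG
XPO4 exons 8 to 19, chr13:20790462-20822289, minus strand: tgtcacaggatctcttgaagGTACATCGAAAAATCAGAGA
ZMYM5 exons 5 to 7, chr13:19835477-19838985, minus strand: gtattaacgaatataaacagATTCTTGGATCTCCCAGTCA
ZMYM2 exons 5 to 7, chr13:20002850-20006586, plus strand: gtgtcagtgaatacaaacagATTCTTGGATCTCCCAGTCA
LATS2 exon 2, chr13:21045685-21046230, minus strand: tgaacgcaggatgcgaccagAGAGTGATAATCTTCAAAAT

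Of the 24 circRNAs of the 9 genes, 12 had a read in some line, 10 of them from the 8 genes without linear reads in SK-Hep-1. Those 8 genes gave 15 (8.40 to 24.7), 6 (2.20 to 13.1) and 20 (12.2 to 30.9) back-splice reads in Hep3B, HepG2 and Huh-7D12 and 0 in SK-Hep-1 (up to 3.69). The SK-Hep-1 interval lay below those of Hep3B and Huh-7D12 and overlapped that of HepG2. Given how the genes were chosen, nothing is read from this difference. LATS2 circRNAs had 0, 2, 0 and 3 reads in the same order, so LATS2 was the only one of the genes with back-splice reads in SK-Hep-1. Its circRNA of exon 2, shown above, had 2 reads in HepG2 and 1 in SK-Hep-1, and that of exons 3 to 4 had 2 in SK-Hep-1. With so few reads, the sums of the 8 genes do not order Hep3B and Huh-7D12, whose intervals overlap.

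Pooled over Hep3B, HepG2 and Huh-7D12, ZMYM2 gave 24 of the 41 back-splice reads. It had 8 circRNAs listed, 5 of them read, with 5, 6 and 13 reads in these lines, so that in Hep3B it gave 5 of 15. Its circRNA of exons 14 to 22, 9 exons and 1161 nucleotides, had 1, 1 and 7 reads in these lines and 0 in SK-Hep-1. A shorter form of exons 16 to 22, which ends at the same splice site, had 0, 1, 3 and 0. XPO4 gave 2, 0 and 5 reads from 2 of 6 circRNAs, and all 5 in Huh-7D12 came from exons 8 to 19, a loop of 12 exons and 2076 nucleotides. PSPC1 had 1 circRNA, of exons 2 to 7, with 4, 0 and 2 reads, and ZMYM5 had 4, 0 and 0 over 2 circRNAs. The ends of 1 of these 2 ZMYM5 circRNAs, with 2 reads in Hep3B, matched no pair of annotated exon ends. The listed circRNAs of IFT88 (3) and EEF1AKMT1 (1) had no read in these libraries, and none was listed for MPHOSPH8 or CRYL1.

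The same exons, 5 to 7, close into a circle of 665 nucleotides in both ZMYM5 and ZMYM2. The circles matched at 553 of 665 bases (83.2%), and in the 40 bases around the junctions printed above all 5 mismatches fell before the junction and 0 after it. The ZMYM5 circle had 2 reads, in Hep3B, and the ZMYM2 circle 2 reads, in Huh-7D12. A read that covers mostly the bases after the junction could come from either gene.

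Relative to their gene reads, the 8 genes gave 1.97, 1.43 and 3.10 back-splice reads per 1000 in Hep3B, HepG2 and Huh-7D12. Over the whole table the values were 0.747, 0.516 and 0.881 per 1000 reads outside mitochondrial genes, and 0.567 in SK-Hep-1. ZMYM2 was at 1.87, 6.16 and 7.39 per 1000 of its own gene reads, with intervals of 0.606 to 4.35, 2.26 to 13.4 and 3.94 to 12.6. In Hep3B ZMYM5, from 4 reads, was at 13.1 per 1000 (3.57 to 33.6), and its interval overlapped that of ZMYM2. Of these 4 reads, 2 were of the circRNA whose ends matched no pair of annotated exon ends.

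**Figure D5:**
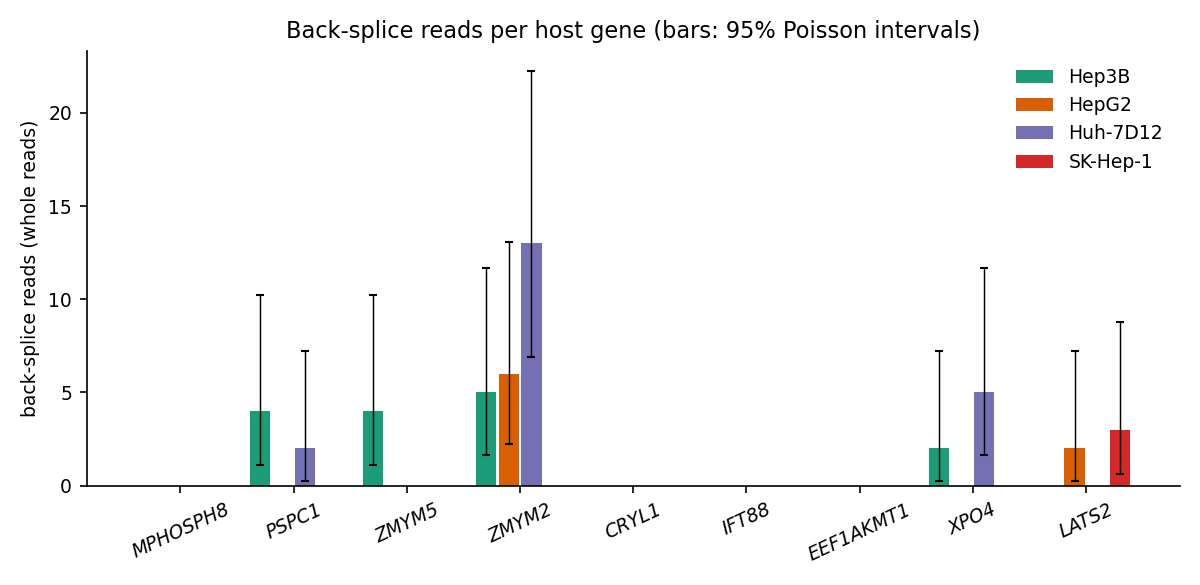
Whole back-splice reads summed per host gene in each line, with exact 95% Poisson intervals as bars and no bar drawn where the sum is 0. ZMYM2 has the tallest bars, at 5, 6 and 13 reads, and SK-Hep-1 has a bar at LATS2 alone, of 3 reads.

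The other genes of each member's pathway were followed in lists, which were drawn up with earlier results of these libraries known. Of the 15850 genes, 851 (5.37%) were called higher in SK-Hep-1 by the same 4-fold rule and 3.31% lower. In the lists of the HUSH complex (6 genes), paraspeckles (9), MYM-type zinc fingers with CoREST (15), IFT complex B (17), eEF1A and its methyltransferases (7) and exportins with XPO4 cargo (12), every gene called lower was a member, 1 per list and 2, ZMYM2 and ZMYM5, in that of CoREST. With the members left out, 0 genes of these 6 lists were lower and 1 was higher, and the median log2 differences of SK-Hep-1 from the mean of the other lines were 0.24, -0.43, -0.21, 1.17, 0.33 and 0.18 in that order, against -0.03 over all genes.

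Partners of the chromatin and paraspeckle proteins were read in SK-Hep-1. TASOR (FAM208A in the gene table), the scaffold protein of HUSH, was at 75.4, 50.6 and 37.4 in Hep3B, HepG2 and Huh-7D12 and at 95.2 in SK-Hep-1, 1.26-fold above Hep3B (1.18 to 1.34), though with library totals SK-Hep-1 was not the highest. SETDB1, the histone methyltransferase that works with HUSH, was at 84.4, 35.5 and 32.4 in Hep3B, HepG2 and Huh-7D12 and at 32.6 in SK-Hep-1, and so was high in Hep3B and level in the rest. NONO, the paraspeckle partner of PSPC1, was at 510, 509, 176 and 712 in the same order, highest in SK-Hep-1 and lowest in Huh-7D12. NEAT1, the RNA on which paraspeckles form, was at 252, 547, 68.6 and 157, so that SK-Hep-1 lay between Huh-7D12 and Hep3B.

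Of the 16 other IFT-B genes, 13 had their highest level in SK-Hep-1, though none was called higher by 4-fold. The number was 13 under each of the 3 scalings, with TRAF3IP1 in the place of IFT20 for library totals. Over all 15850 genes 33.0% were highest there, 25.9% with library totals and 28.4% with reads outside mitochondrial genes. Members left out, the other lists above had 2 of 5 such genes for HUSH (0 and 1 with those scalings), 1 of 8 for paraspeckles, 3 of 13 for CoREST, 3 of 6 for eEF1A and 5 of 11 for exportins (4 with library totals). CLUAP1 was at 2.79, 4.54 and 3.31 in Hep3B, HepG2 and Huh-7D12 and at 16.0 in SK-Hep-1, a ratio to HepG2 of 3.54 (2.76 to 4.56). IFT172 was at 9.18, 18.6, 3.74 and 30.0. IFT57 had 0 reads in Hep3B and levels of 8.80, 13.6 and 33.4 in the other 3. IFT88 was the one gene of the list without reads in SK-Hep-1.

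Of the eEF1A genes, EEF1A2, which encodes the isoform of muscle and neurons, was 6.71-fold higher in SK-Hep-1 than in Hep3B (5.57 to 8.11), at 32.8 against 4.89, 0.656 and 2.93 in Hep3B, HepG2 and Huh-7D12. The other exportin genes were read in all 4 lines, XPO1 at 247, 238, 262 and 224. For the cargo of XPO4, EIF5A was at 202, 147, 171 and 329 and SMAD3 at 25.9, 39.7, 41.5 and 98.0, both highest in SK-Hep-1 and both short of 4-fold. Of 7 genes of the uronate and xylulose pathway none was called lower or higher and the median was -1.15, or -1.14 without CRYL1, and 0 of the other 6 were highest in SK-Hep-1. UGDH, which makes UDP-glucuronate, was at 119, 376, 114 and 40.9, lowest in SK-Hep-1.

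LATS2 acts in the Hippo pathway, for which 21 genes were listed. None was lower and 2 were higher, PTPN14 (7.52-fold, 6.81 to 8.32) and AMOTL2 (4.06-fold, 3.84 to 4.29), both of which encode proteins that bind YAP1, and the median was 0.82. LATS1, the paralog of LATS2, was at 48.9, 60.6 and 46.4 in Hep3B, HepG2 and Huh-7D12 and at 27.3 in SK-Hep-1, the reverse of LATS2 in that SK-Hep-1 was lowest. Of 6 target genes of the pathway, 3 were higher and the median was 2.78: CYR61, a matricellular protein gene, by 31.1-fold (26.4 to 36.8), the receptor kinase gene AXL by 73.3-fold (64.8 to 83.3) and AMOTL2, which is in both lists. Without LATS2, 11 of 20 genes of the pathway and 5 of 6 targets had their highest level in SK-Hep-1, the former 10 with reads outside mitochondrial genes, against the shares of all genes given above. The target that did not was CTGF, at 12.7, 80.9 and 30.4 in Hep3B, HepG2 and Huh-7D12 and at 42.8 in SK-Hep-1. AMOTL2 was no longer called with an added 4 or with reads outside mitochondrial genes. TEAD1 is also in both lists.

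The genes with the pattern most like the 8 were found by Euclidean distance in log2(level + 1) over the 4 lines to their median profile. The nearest 10 outside the set were ZNF813 (0.46), SALL1 (0.46), ZNF600 (0.57), RGN (0.62), WNK2 (0.65), SLC16A10 (0.69), ZNF765 (0.74), ZNF83 (0.74), MAP2K6 (0.75) and GRHL1 (0.77). None of the 10 lies on chromosome 13, and 4, the zinc finger genes ZNF813, ZNF600, ZNF765 and ZNF83, lie in the chromosome 19 run. Of the 10, 7 had 0 reads in SK-Hep-1. The profile includes the SK-Hep-1 value by which the 8 were chosen, so nothing is read from this count. The 8 genes themselves lay farther from the profile than these 10, at 1.03 (MPHOSPH8) to 3.65 (EEF1AKMT1), since their levels in the other lines differ widely.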

How the data were processed

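Total RNA libraries of 4 lines, 1 each, were analysed from the deposited gene and circRNA tables. Both hold signal values that the authors normalised; within a library 100% of the values were whole multiples of the lowest nonzero one (tolerance 0.001), so the deposited signal is read numbers times 1 factor per library (0.890 in Hep3B, 1.39 in HepG2, 1.08 in Huh-7D12, 1.35 in SK-Hep-1). STAR 2.6.1d and the hg38 build are named per the submitters' processing notes; what counted reads, called circRNAs or annotated genes is not given in the sources used here. With 1 library per line no count model was fitted, since none has residual degrees of freedom.

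Levels are deposited values scaled to a mean column total of 1000000, and an empty circRNA value was taken as 0 reads. Genes entered with a level of at least 1 in some line, and log2 levels used a pseudocount of 1. Positions, names and exon lengths came from GENCODE 29, promoters from RefSeq. Intervals for levels are exact Poisson, those for ratios exact binomial, both at 95%; the floor is 3 reads per library (a level of 0.105, 0.164, 0.127 and 0.158 in that order). The members, the gene lists and the rules were chosen with earlier results of these data known. Named are the members, genes of their span, the nearest genes beside it, list genes past 4-fold, the 10 genes most alike, genes of runs, and circRNAs with at least 5 reads in a line; partner genes named below 4-fold, and circRNAs with fewer reads, were chosen after their values were seen. Other pseudocounts (0.25 and 4), scalings, entry levels and read limits were tried. Calls, runs and intervals were tested on simulated data. Python 3.11.15, numpy 2.4.6, pandas 2.3.3 and scipy 1.17.1 were used.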

Additional observations from a re-analysis of the deposited data

How the results depend on the processing

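No paired analysis was possible because there was 1 library per line and no replicate number. With a pseudocount of 4 the members called lower fell from 7 to 4, and over all genes from 525 to 255 of 15850 (801 with 0.25). With 4, the lower genes went from 2 to 1 in the MYM-type and CoREST list and from 1 to 0 in the IFT complex B and eEF1A lists, and the higher Hippo genes from 2 to 1, as they did with reads outside mitochondrial genes. CRYL1 made 1 lower uronate gene in place of 0 with a pseudocount of 0.25 and with reads outside mitochondrial genes (log2 distance -2.39); with library totals it was at -2.17 and EEF1AKMT1 at -1.92. The members with a 2-fold range among Hep3B, HepG2 and Huh-7D12 went from 1 to 4 with library totals. Against the mean of the other lines, the median gene in SK-Hep-1 was at -0.24 with library totals and at -0.21 with reads outside mitochondrial genes, in place of -0.03. With a level of at least 5 required in each other line, the runs numbered 4 in SK-Hep-1 in place of 16, 2 in Huh-7D12 in place of 4, and 0 in HepG2 in place of 1, fewer genes being eligible; with a limit of 0 reads SK-Hep-1 had 9. Leaving the members out, chosen after seeing the data, took the lower genes of the HUSH, paraspeckle, CoREST, IFT-B, eEF1A and exportin lists to 0 by construction. No log2 distance given for a member changed sign under the alternatives run, but the order of Hep3B, HepG2 and Huh-7D12 did: with library totals the lowest line became HepG2 for XPO4 and EEF1AKMT1 and Hep3B for IFT88, and the highest Huh-7D12 for LATS2, and with reads outside mitochondrial genes Hep3B became highest for PSPC1. For the other changes the cause was not tested. The back-splice sums are too small to rank the lines, and genes near a level of 1 could not reach 4-fold on the log2(level + 1) scale.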
